A study of Sus scrofa with 2 samples.

Results

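Mural cells, the pericytes of capillaries and the smooth muscle cells of larger vessels, were looked for in single-nucleus RNA sequencing of pig pancreas. Of 28097 nuclei within the limits on depth, 86 were taken as mural, 31 of 13189 in the WT library and 55 of 14908 in the PIGinH11 library. The members were chosen by measured values. A nucleus had to hold 270 to 3700 genes and fewer than 13000 UMIs, where a UMI (unique molecular identifier) tags 1 captured RNA molecule. At least 3 UMIs and at least 0.15% of its UMIs had to come from RGS5, MYH11, NOTCH3, LMOD1, ACTA2 and PDGFRB together. This sum also had to exceed both a stellate sum (ABCA8, ADAMTSL3, SVEP1, C7, DCN and COL6A3) and an endothelial sum (FLT1, PTPRB, FGD5 and EGFL7). The levels of these genes in mural nuclei are therefore a description and not a finding, and the same holds for every comparison of mural nuclei with nuclei that the rule left out.

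Each group had 1 library, made from 1 piece of the body of the pancreas of 1 Bama pig, so the genotype, the animal, the tissue piece and the library cannot be told apart. The WT pig was wild-type. The PIGinH11 pig carried 3 transgenes at the H11 locus on chromosome 14, namely GIPRdn (a dominant-negative incretin receptor), hIAPP (human islet amyloid polypeptide) and PNPLA3 I148M, each under a promoter specific to beta cells or liver. Both pigs were 18 months old and had eaten control diet to the age of 6 months, followed by 12 months of a high-fat and high-sugar diet (HFHSD) of 37% sucrose, 53% control diet and 10% lard. In WT, 13619 barcodes carried 55784067 UMIs (median 3216 per barcode), and in PIGinH11, 14964 barcodes carried 26228811 (median 1181.5). The libraries shared 60 barcodes, none of them a member.

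Pericytes lie within the basement membrane of capillaries and are held there by PDGF signalling from the endothelium to PDGFRB, while Notch signalling through NOTCH3 maintains vascular smooth muscle. Smooth muscle cells contract through smooth muscle actin (ACTA2) and myosin (MYH11), controlled by calcium entry and by the nitric oxide and cyclic GMP pathway. In the pancreas mural cells surround the capillaries of islets and acini, where they set blood flow. RGS5, which dampens signals of G protein-coupled receptors, is a widely used pericyte marker.

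Mural nuclei were rare in both libraries. They made up 0.235% of the nuclei in WT (95% Clopper–Pearson interval 0.16 to 0.333) and 0.369% in PIGinH11 (0.278 to 0.48), and the intervals overlapped. These and all intervals below cover counting error only and not differences between pigs. For sums of UMIs they also leave out the spread between nuclei. No test between the groups was possible with 1 library each. Members held a median of 2935 UMIs in WT (789 to 7374) and 1660 in PIGinH11 (555 to 4856), which came to nearly equal totals of 101960 and 101901 UMIs. The 6 marker genes gave a median of 17 UMIs per member in WT (3 to 51) and 8 in PIGinH11 (3 to 34), or 0.399% and 0.507% of its UMIs.

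Close to the thresholds, 2 members in WT and 4 in PIGinH11 had exactly 3 marker UMIs, and 4 and 17 nuclei were left out with 1 UMI fewer. A further 11 and 6 nuclei had enough marker UMIs but too small a share. The highest share among them was 0.125% in WT and 0.142% in PIGinH11, and the lowest share of a member 0.159% and 0.155%. The stellate or endothelial sum equalled or exceeded the mural sum in 4 nuclei of each library. Only 1 barcode, in PIGinH11, met the marker rule outside the depth limits. None of the 86 members was marked as a doublet (2 nuclei under 1 barcode), while 10.1% of all other nuclei in WT and 12% in PIGinH11 were marked.

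The label was checked against the markers. UMIs of a gene were summed over the mural nuclei of a library and divided by their total, and scaled to 1000000 UMIs (CPM). ACTA2 reached 2462 CPM in WT and 2620 in PIGinH11, against 47.3 and 46.8 in stellate nuclei and 0.92 and 5.41 in endothelial nuclei. PDGFRB, the receptor for PDGF, was at 559 and 785 CPM in mural nuclei and at 113 and 121 in stellate nuclei. RGS5 stood at 1255 and 442 CPM and did not exceed 2.71 CPM in stellate or endothelial nuclei of either library. MYH11 was at 804 and 638 CPM, NOTCH3 at 314 and 667, and LMOD1, which nucleates actin filaments in smooth muscle, at 88.3 and 137. All 6 genes were thus higher in mural than in stellate and endothelial nuclei of both libraries, as the choice of members on these genes largely fixed.

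In single nuclei these markers were patchy. ACTA2 was found in 23 of 31 members in WT and 47 of 55 in PIGinH11, beside 0.145% and 0.525% of acinar nuclei, and MYH11 in 12 and 23 members, beside 0.971% and 1.2%. RGS5 was found in 77.4% of the members in WT and 32.7% in PIGinH11, beside 0.3% and 0.416% of acinar nuclei, a cell type without RGS5 expression, whose median depths were 3022 and 1195 UMIs. When 500 UMIs were drawn from every nucleus, so that depth was equal, the shares were 51.6% and 12.7% in mural and 0.0413% and 0.217% in acinar nuclei. The rule accepts any mix of its genes, so pericytes and smooth muscle cells enter together, and no nucleus was assigned to either type.

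**Figure D1:**
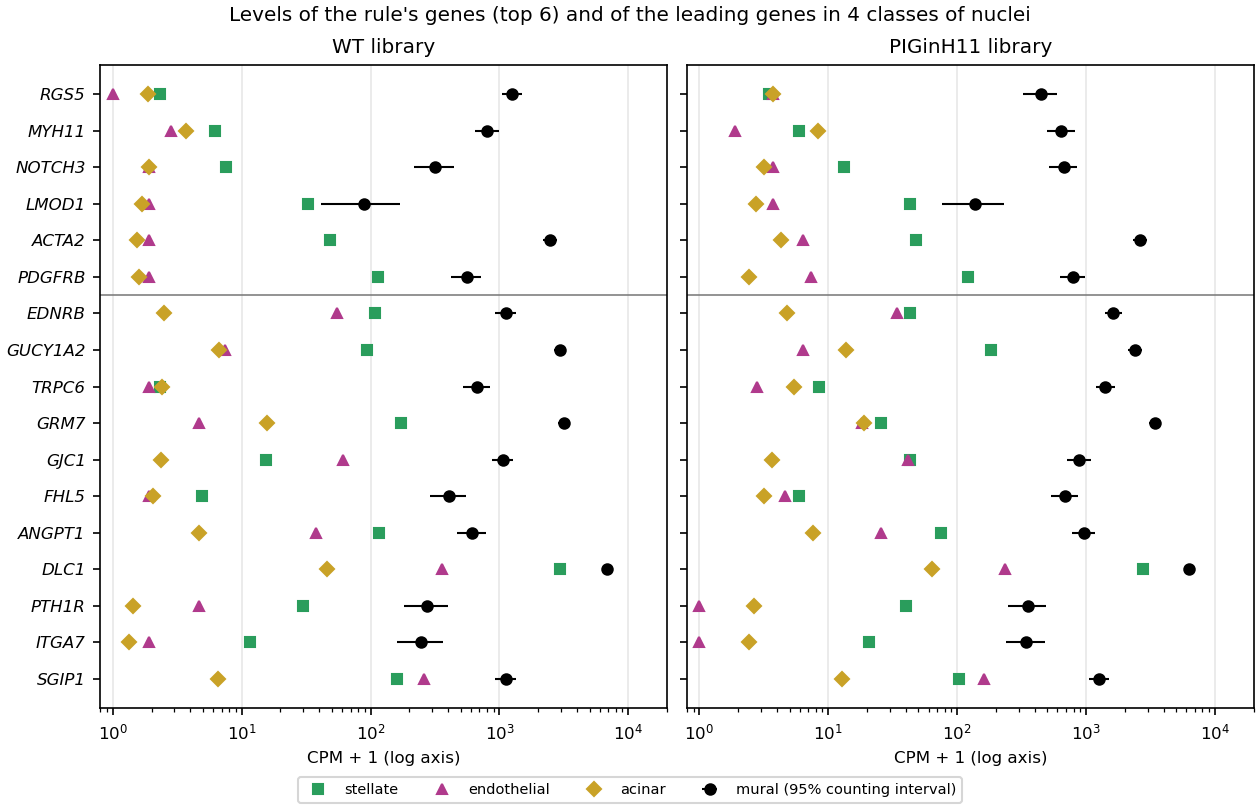
Levels of the 6 genes of the rule and of the leading genes outside it in mural, stellate, endothelial and acinar nuclei, as CPM + 1 on a log axis, with 1 panel per library, 1 point per class and a 95% counting interval for mural nuclei. The mural point lies above those of the other 3 classes for each gene shown, for example EDNRB at 1128 and 1629 CPM in mural nuclei, while DLC1 and PDGFRB are shared in part with stellate nuclei.

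Genes outside the rule described the same nuclei. Among 1448 genes with a name and at least 30 UMIs over the mural nuclei of both libraries, 255 (17.6%) were at least 4-fold higher in both libraries than in all other nuclei, with 5 CPM added. The share was 7.6% (110 genes) over stellate nuclei and 14.4% (209 genes) over endothelial nuclei, and 75 genes met all 3 conditions. The leading genes outside the rule were GUCY1A2, EDNRB, TRPC6, GRM7, GJC1, FHL5, ANGPT1, DLC1, PTH1R, ITGA7 and SGIP1.

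EDNRB, an endothelin receptor, was at 1128 CPM in WT (115 UMIs, 931 to 1354) and 1629 CPM in PIGinH11 (166 UMIs, 1391 to 1897). In stellate nuclei it was at 107 and 41.9 CPM, and in endothelial nuclei at 54.3 and 33.4. EDNRA, the other endothelin receptor, gave 45 and 41 UMIs and also met the 3 conditions, at 441 and 402 CPM against 10.5 and 34.5 in stellate nuclei. Both receptors of the endothelin pathway were thus measured in the mural nuclei of both pigs.

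GUCY1A2, a subunit of the nitric oxide receptor guanylate cyclase, was at 2952 CPM in WT and 2394 in PIGinH11, against 92 and 182 in stellate nuclei and 6.44 and 5.41 in endothelial nuclei. TRPC6, a cation channel opened by diacylglycerol, was at 667 and 1413 CPM and at 7.39 CPM or less in the nuclei of the other classes. GJC1, the connexin that couples mural cells to each other, was at 1059 and 883 CPM. GRM7, a metabotropic glutamate receptor best known from neurons, was at 3188 and 3454 CPM against 171 and 24.6 in stellate and 3.68 and 17.1 in endothelial nuclei.

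ANGPT1, the ligand through which mural cells stabilise endothelium, was at 608 CPM in WT and 962 in PIGinH11, against 36.8 and 24.4 in endothelial nuclei. PTH1R, the parathyroid hormone receptor, was at 275 and 353 CPM, and ITGA7, a laminin-binding integrin, at 245 and 343. FHL5, a LIM-domain cofactor, was at 402 and 687 CPM, with 4.92 CPM or less in stellate and endothelial nuclei. DLC1 was high in mural nuclei (6797 and 6241 CPM) and also in stellate nuclei (2926 and 2775), so that it set mural nuclei apart mainly from the other classes.

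Genes of other cell types were counted in the same nuclei. The 12 endothelial markers summed to 235 CPM in WT and 304 in PIGinH11, against 9866 and 9197 in endothelial nuclei. PECAM1 was the most abundant of them (16 of 24 UMIs in WT and 13 of 31 in PIGinH11), and EGFL7, CDH5 and TIE1 were at 0 in both libraries. The 12 stellate or fibroblast markers summed to 2530 and 1276 CPM, against 14866 and 13085 in stellate nuclei. PID1 contributed 169 and 67 of these UMIs, the collagen-binding proteoglycan gene LUM was at 0 in both libraries and DCN at 1 and 2 UMIs. Low sums of both lists were in part fixed by the rule.

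Macrophage, adipocyte and mesothelial markers were near 0 in the mural nuclei, while lymphocyte, endocrine and ductal markers gave some UMIs. The 8 macrophage markers gave 1 and 8 UMIs, with 6 of them at 0 in both libraries and PTPRC (1 and 7) the most abundant. The 6 adipocyte markers gave 1 and 0 UMIs, and WT1, the only mesothelial marker with a name, 0. The 8 lymphocyte markers summed to 500 and 373 CPM, led by ETS1 (19) in WT and BACH2 (14) in PIGinH11, and the 10 endocrine markers to 245 and 196 CPM, with INS at 20 and 13 UMIs and 5 markers at 0 in both. The 6 ductal markers came to 579 and 746 CPM, against 728 and 867 in acinar nuclei, and SLC4A4 held 40 and 50 of the UMIs.

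RNA of acinar cells was present in mural nuclei, and more of it in WT. The 8 digestive enzyme genes summed to 38035 CPM in WT and 7478 in PIGinH11 in mural nuclei. The same sum was 42093 and 6896 CPM in stellate, 35558 and 6468 in endothelial and 81961 and 36630 in acinar nuclei, so the gap between the libraries was found in every class. PRSS2, trypsinogen, was the most abundant of them with 2121 and 172 UMIs. The 7 acinar genes that do not encode enzymes summed to 3040 and 1678 CPM, against 15856 and 13893 in acinar nuclei, and this sum exceeded the mural sum in 6 members in WT and 7 in PIGinH11. Mitochondrial transcripts were 0.176% and 0.0324% of mural UMIs. The part of these RNAs in the differences below was not tested for each gene, and the values without the mixed nuclei and without enzyme genes in the total are given in the closing section.

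The levels in mural nuclei were then set side by side between the pigs, to describe how the mural cells of the transgenic pig differed from those of the WT pig. Ratios are given as log2 of PIGinH11 over WT, with 0.5 UMI added to each sum. Of the 1448 genes, 122 (8.43%) were at least 2-fold higher in PIGinH11 and 131 (9.05%) at least 2-fold lower, and the median log2 ratio was 0.01. With sums of 30 UMIs, many such ratios lie within counting error, so the intervals are given with the ratios.

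**Figure D2:**
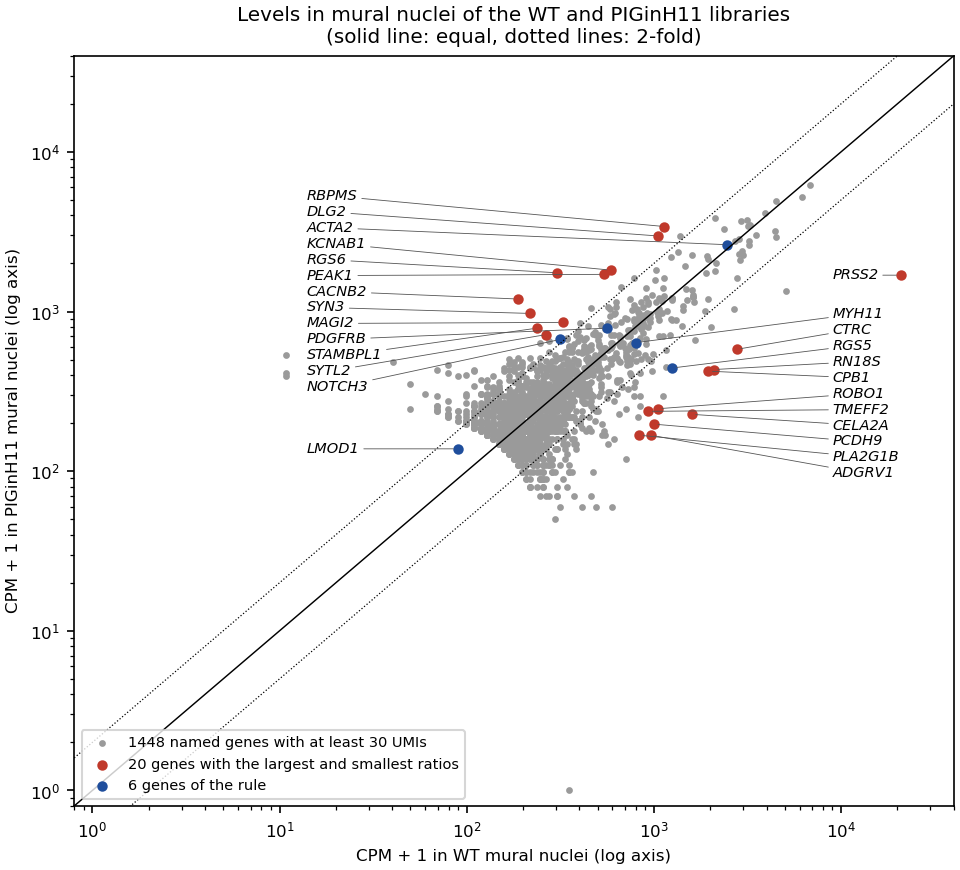
Levels of 1448 genes in the mural nuclei of WT (x axis) and PIGinH11 (y axis), as CPM + 1 on log axes, with 1 point per gene and the diagonal marking equal levels. The digestive enzymes and RGS5, ADGRV1 and ROBO1 lie below the diagonal, and CACNB2, RGS6 and RBPMS above it, while ACTA2 is close to it.

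Among the genes of the rule, RGS5 differed most. It gave 128 UMIs in WT and 45 in PIGinH11, a level 2.82-fold lower in PIGinH11 (log2 ratio −1.50, 95% interval −2.03 to −1.01). NOTCH3 gave 32 and 68 UMIs and was 2.11-fold higher (1.08, 0.46 to 1.74). ACTA2 (251 and 267 UMIs) had a log2 ratio of 0.09 (−0.16 to 0.34). Over all members RGS5 was thus lower and NOTCH3 higher in PIGinH11, while the interval for ACTA2 included 0. Within the ranges of nuclei described below, ACTA2 had ratios of opposite direction, 1 of which rested largely on 1 WT nucleus.

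The intervals of the other 3 genes of the rule included 0. MYH11 gave 82 and 65 UMIs (−0.33, −0.83 to 0.15), with 41.5% of its WT UMIs in a single nucleus. Without the nucleus highest in MYH11 in each library, left out after the values were seen, its ratio was 0.16. PDGFRB gave 57 and 80 UMIs (0.49, −0.02 to 1.01) and LMOD1 9 and 14. As the members were chosen on the sum of these 6 genes, their ratios are not independent of each other.

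The genes with the largest ratios were taken from those with at least 100 UMIs over both libraries. In the direction of PIGinH11 these were CACNB2, RGS6, SYN3, STAMBPL1, PEAK1, KCNAB1, RBPMS, DLG2, SYTL2 and MAGI2. RBPMS, an RNA-binding protein that controls splicing in smooth muscle, gave 116 UMIs in WT and 347 in PIGinH11, or 1138 and 3405 CPM, and was 2.98-fold higher (log2 ratio 1.58, 1.27 to 1.90). It was found in 26 and 48 members, and 4.81% and 4.15% of acinar nuclei. PEAK1, a pseudokinase of the actin cytoskeleton, gave 55 and 174 UMIs (1.65, 1.22 to 2.13).

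CACNB2, RGS6 and KCNAB1 had a large part of their WT UMIs in 1 nucleus. CACNB2, the beta subunit of voltage-gated calcium channels, gave 19 and 122 UMIs (2.65, 1.98 to 3.46), but 63.2% of the WT UMIs came from 1 nucleus. RGS6, a regulator of G protein signalling, gave 31 and 178 UMIs (2.50, 1.97 to 3.12), with 61.3% of the WT UMIs in 1 nucleus, and it was found in 4 of 31 and 32 of 55 members. The share of mural nuclei with an RGS6 UMI was 12.9% in WT and 58.2% in PIGinH11, beside 7.46% and 4.06% of acinar nuclei. The level of RGS6 was 304 and 1747 CPM in mural nuclei, against 462 and 364 in stellate and 43.6 and 29.1 in acinar nuclei. KCNAB1, a potassium channel subunit, gave 60 and 185 UMIs, with 43.3% of the WT UMIs in 1 nucleus.

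STAMBPL1, a deubiquitinase gene, gave 24 and 80 UMIs. It lies on chromosome 14 of Sscrofa11.1 (100798096 to 100859576), 8568 bases before ACTA2 (100868145 to 100886732), and whether transcripts of either gene were counted for the other was not tested. DLG2, a synaptic scaffold gene, gave 107 and 303 UMIs (1.50, 1.18 to 1.83), and SYN3, a synapsin gene, 22 and 99, at levels below those of acinar nuclei in both libraries (985 and 1551 CPM).

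On the other side, 6 of the 10 genes with the smallest ratios were PRSS2, CELA2A, PLA2G1B, CTRC and CPB1, which encode pancreatic enzymes, and the ribosomal RNA gene RN18S. PRSS2 was at 20802 CPM in WT and 1688 in PIGinH11, and at 22768 and 1507 CPM in stellate nuclei. These genes were lower in PIGinH11 in the stellate, endothelial and acinar nuclei as well.

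The 4 others were ADGRV1, PCDH9, ROBO1 and TMEFF2. ADGRV1, a very large adhesion G protein-coupled receptor, gave 98 UMIs in WT and 17 in PIGinH11, or 961 and 167 CPM, and was 5.63-fold lower in PIGinH11 (−2.49, −3.36 to −1.77). It was found in 74.2% of the members in WT and 12.7% in PIGinH11, beside 3.41% and 3.1% of acinar nuclei, and its level in stellate and endothelial nuclei did not exceed 19.7 CPM. Among the compared classes, ADGRV1 was thus measured mainly in mural nuclei, and there mainly in WT.

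ROBO1, a receptor for SLIT ligands, gave 107 and 25 UMIs (−2.07, −2.79 to −1.46), at 1049 and 245 CPM. SLIT3, a ligand of this receptor family, gave 80 and 166 UMIs and was at 785 and 1629 CPM (1.05, 0.66 to 1.46). PCDH9, a protocadherin, gave 102 and 20 UMIs, and TMEFF2, a transmembrane protein with follistatin modules, 95 and 24 (−1.96, −2.70 to −1.33). TMEFF2, PCDH9 and ROBO1 were also measured in stellate nuclei, at 768 and 475 CPM, 1356 and 1049 CPM, and 465 and 352 CPM.

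Pathway lists were described by counts and medians. Of the 27 contractile apparatus genes with a name, 17 reached 30 UMIs, of which 4 (23.5%) were at least 2-fold higher in PIGinH11 and none lower, beside 8.43% higher and 9.05% lower of all genes tested. The median log2 ratio of the list was 0.63. The list leaves out ACTA2 (0.09), MYH11 (−0.33, and 1.18 in the EDNRB-leaning nuclei described below) and LMOD1, the contractile genes of the rule. The sum of the list was 12623 CPM in WT and 17046 in PIGinH11. FLNA (filamin A) gave 14 and 40 UMIs (1.48, 0.61 to 2.51), MYL6 (myosin light chain) 11 and 26 (1.21, 0.18 to 2.41) and VCL (vinculin) 47 and 107 (1.18, 0.68 to 1.71).

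TPM1, tropomyosin, which lies along the actin filament, gave 141 UMIs in WT and 303 in PIGinH11, or 1383 and 2973 CPM (1.10, 0.81 to 1.40). CALD1 (caldesmon), the most abundant gene of the list, gave 320 and 380 UMIs (0.25, 0.03 to 0.47), and SMTN (smoothelin) had the smallest ratio, with 29 and 20 UMIs (−0.52, −1.43 to 0.34). Calponin (CNN1) gave only 2 UMIs in each library. The 22 UMIs of ACTG2, the actin of visceral smooth muscle, all came from 1 WT nucleus, and PIGinH11 had 0.

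Of the 26 calcium and potassium handling genes, 17 were tested, 6 were at least 2-fold higher in PIGinH11 and 1 lower (8.43% and 9.05% of all genes), with a median of 0.39. SLC8A1, the sodium–calcium exchanger, gave 197 and 228 UMIs (0.21, −0.07 to 0.49) and RYR2, the calcium release channel of the sarcoplasmic reticulum, 150 and 197 (0.39, 0.08 to 0.71). ITPR1, the inositol trisphosphate receptor, gave 17 and 44 UMIs (1.35, 0.54 to 2.27). The channel genes CACNA1H (13 and 34 UMIs) and CACNA1C (13 and 31) and the calcium pump gene ATP2B4 (20 and 48) were also at least 2-fold higher, together with CACNB2 and KCNAB1 above. TRPC4, a cation channel, was the lower gene, with 35 and 8 UMIs (−2.06, −3.45 to −0.99), while TRPC6 gave 68 and 144 (1.08, 0.66 to 1.52).

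**Figure D3:**
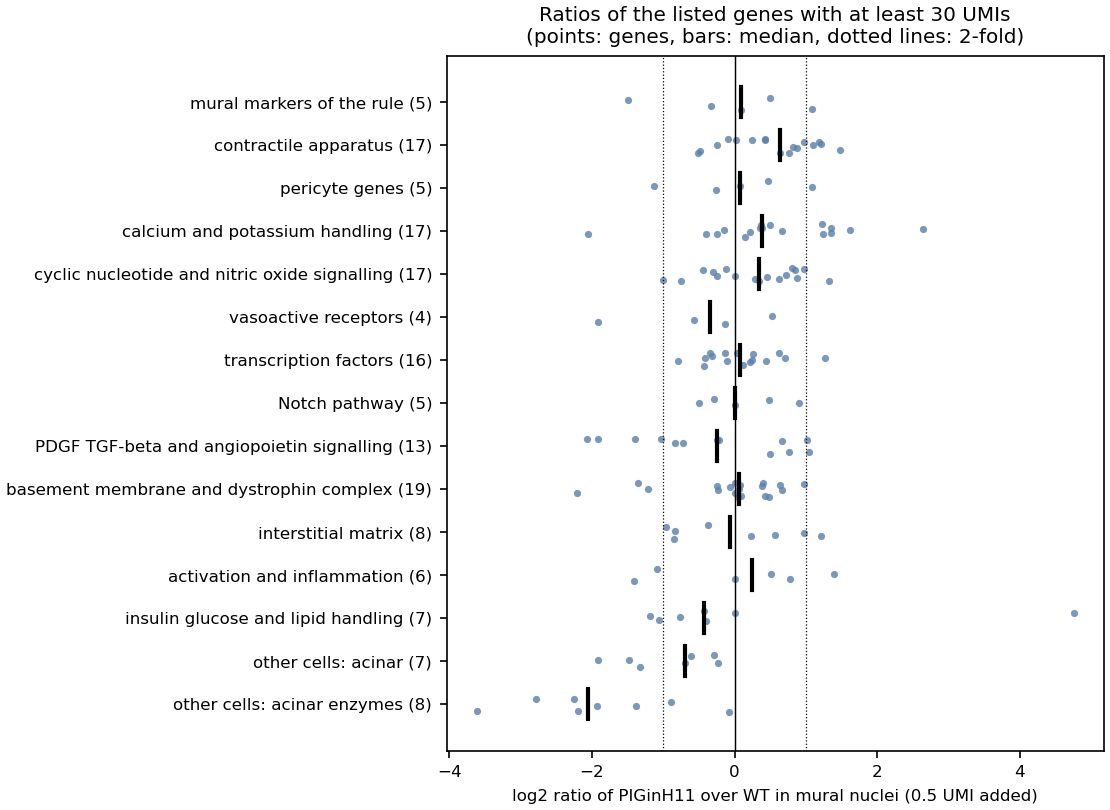
Log2 ratio of PIGinH11 over WT in mural nuclei for the genes of each reported list with at least 4 genes tested, with 1 point per gene and a bar at the list median. The contractile list lies mostly above 0 (median 0.63), the digestive enzymes below it (median −2.06), and most other lists spread around the median of all genes, 0.01.

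In the nitric oxide and cyclic nucleotide pathway, 30 genes had a name and 17 were tested. Only 1 was at least 2-fold higher in PIGinH11 and 1 lower (8.43% and 9.05% of all genes), with a median of 0.34. The intervals of 4 genes lay above 0 and those of 5 below 0. PRKG1, the cyclic GMP-dependent kinase that relaxes smooth muscle, gave 634 and 533 UMIs (−0.25, −0.42 to −0.08). Also below 0 were the guanylate cyclase subunits GUCY1B1 (−0.75, −1.27 to −0.25) and GUCY1A2 (−0.30, −0.55 to −0.05). PDE3A, which degrades cyclic AMP, gave 216 and 395 UMIs (0.87, 0.63 to 1.12). ADCY9, an adenylyl cyclase, gave 12 and 31 UMIs (1.33, 0.37 to 2.47), and PDE7B, a cyclic AMP phosphodiesterase, 69 and 34 (−1.01, −1.66 to −0.41). The sum of the list was close between the libraries, at 18949 and 19833 CPM.

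Among 32 vasoactive receptors, 4 reached 30 UMIs and 12 were at 0 in both libraries. AGTR1, the angiotensin II receptor, gave 62 UMIs in WT and 16 in PIGinH11, or 608 and 157 CPM (−1.92, −2.85 to −1.14). EDNRB gave 115 and 166 UMIs (0.53, 0.18 to 0.89), EDNRA 45 and 41 (−0.13, −0.78 to 0.51), and PTGER3, a prostaglandin E receptor, 30 and 20. Over all members the interval of AGTR1 thus lay below 0 and that of EDNRB above 0, though these intervals leave out the spread between nuclei. Within the ranges of nuclei described below, EDNRA had −1.09 (−2.21 to −0.16) in EDNRB-leaning and 1.29 (0.02 to 3.13) in MYOCD-leaning nuclei.

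The list of pericyte genes left out RGS5 (−1.50) and PDGFRB (0.49) as genes of the rule. It had 22 genes with a name, of which 5 reached 30 UMIs, with a median of 0.08. Among these, 1 was at least 2-fold higher and 1 lower, beside 8.43% and 9.05% of all genes. All 5 were at least 4-fold above all other nuclei in both libraries, beside 17.6% of all genes. The 30 UMIs were counted in the mural nuclei themselves and 17 genes of the list fell below them. This is therefore a description and does not bear on the label. EBF1, a transcription factor of perivascular cells, gave 333 and 353 UMIs (0.08, −0.14 to 0.31) but was higher in stellate nuclei (6242 and 5145 CPM against 3266 and 3464). INPP4B, a phosphoinositide phosphatase, gave 240 and 333 UMIs (0.47, 0.23 to 0.72). KCNJ8, the pore of the ATP-sensitive potassium channel of pericytes, gave 62 and 28 UMIs (−1.13, −1.84 to −0.48), and TRPC6 was the higher gene.

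Several pericyte genes used in other species were sparse here. HIGD1B gave 15 and 9 UMIs, COX4I2 10 and 6, CSPG4 6 and 14, MCAM 9 and 19, and ABCC9, the partner of KCNJ8, 1 and 2. The intervals of the ratios of these 5 genes included 0, so no difference between the pigs was detectable at this depth.

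Of 38 transcription factors, 16 were tested, with a median of 0.08. Among these, 1 was at least 2-fold higher in PIGinH11 and none lower, beside 8.43% and 9.05% of all genes. MYOCD, myocardin, the coactivator that switches on smooth muscle genes, gave 20 and 49 UMIs (1.27, 0.52 to 2.12) from 3 and 12 nuclei. ZEB1 gave 144 and 83 UMIs (−0.79, −1.20 to −0.39), whereas its relative ZEB2 gave 276 and 283 (0.04, −0.21 to 0.28). The Notch pathway list leaves out NOTCH3 as a gene of the rule (log2 ratio 1.08, above). In it, 5 of 17 genes were tested and none passed 2-fold in either direction, beside 8.43% higher and 9.05% lower of all genes. The coactivator MAML2 gave 291 UMIs in each library, the ligand JAG1 30 and 21 (−0.50, −1.39 to 0.34), and the receptor NOTCH2 12 and 23 (0.91, −0.13 to 2.08).

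Signals between mural and endothelial cells held genes with ratios in both directions. Of 36 genes of PDGF, TGF-beta, angiopoietin and guidance signalling, 13 were tested, 2 were at least 2-fold higher in PIGinH11 (SLIT3 and BMPR2) and 4 lower (ROBO1, BMP5, TEK and ANGPT2), beside 8.43% and 9.05% of all genes, with a median of −0.25. BMP5, a bone morphogenetic protein, gave 114 UMIs in WT and 30 in PIGinH11, or 1118 and 294 CPM (−1.91, −2.56 to −1.33), against 19.7 and 9.85 CPM in stellate nuclei. ANGPT1 gave 62 and 98 UMIs (0.66, 0.19 to 1.14), while ANGPT2, its antagonist at the receptor TEK, gave 21 and 10 (−1.03, −2.32 to 0.08), within counting error. SEMA5A, the most abundant gene of the list, gave 358 and 308 UMIs (−0.22, −0.44 to 0.01).

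The basement membrane and dystrophin list had 36 genes with a name and 19 tested, of which none was at least 2-fold higher in PIGinH11 and 3 were lower (8.43% and 9.05% of all genes), with a median of 0.06. The 3 genes were the nidogens NID2 (48 and 10 UMIs, −2.21, −3.41 to −1.26) and NID1 (39 and 15, −1.35, −2.34 to −0.49), which link laminin to collagen IV, and HSPG2 (24 and 10, −1.22, −2.49 to −0.14), the proteoglycan perlecan. The collagen IV chain COL4A2 gave 53 and 84 UMIs (0.66, 0.15 to 1.19). DMD, dystrophin, gave 103 and 161 UMIs, and UTRN, utrophin, 113 and 118 (0.06, −0.32 to 0.45).

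Of 28 interstitial matrix genes, 8 were tested, with a median of −0.07. Among these, 1 was at least 2-fold higher in PIGinH11 and none lower, beside 8.43% and 9.05% of all genes. The higher gene was ADAMTS9, a protease (11 and 26 UMIs, 54.5% of the WT UMIs in 1 nucleus). COL5A2 gave 58 and 86 UMIs (0.57, 0.07 to 1.08) and COL3A1 22 and 12 (−0.85, −2.02 to 0.20). The list summed to 2854 CPM in WT and 3288 in PIGinH11, below the 6569 and 5899 CPM of stellate nuclei. Of 22 activation and inflammation genes, 6 were tested, with a median of 0.25. Among these, 1 was at least 2-fold higher and 2 lower, beside 8.43% and 9.05% of all genes. CD44, the hyaluronan receptor, gave 13 and 35 UMIs (1.40, 0.48 to 2.47), FAP, fibroblast activation protein, 54 and 20 (−1.41, −2.25 to −0.67) and CCN1, a matricellular protein, 24 and 11 (−1.09, −2.30 to −0.04).

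For insulin, glucose and lipid handling, 26 genes had a name and 7 were tested, with a median of −0.43. Among these, 1 was at least 2-fold higher in PIGinH11 and 2 lower, beside 8.43% and 9.05% of all genes. PPARG, the nuclear receptor of fat storage, gave 1 UMI in WT and 40 in PIGinH11 (4.76, 2.76 to 10.66). The 40 UMIs came from 11 nuclei, and 47.5% of them from 1. LPL, lipoprotein lipase, gave 99 and 43 UMIs (−1.19, −1.75 to −0.67), TXNIP, an inhibitor of glucose uptake, 38 and 18 (−1.06, −1.97 to −0.23) and IGFBP7 165 and 125 (−0.40, −0.75 to −0.06). Of 19 heat-shock and immediate-early genes only HSP90AA1 reached 30 UMIs (17 and 40, 1.21, 0.38 to 2.15). HSP70.2 gave 18 and 0 UMIs and FOS 11 and 1, and the list summed to 981 and 707 CPM. The same sum was 1886 and 611 CPM in stellate, 1355 and 636 in endothelial and 2194 and 680 in acinar nuclei. It was thus lower in PIGinH11 in every class compared.

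Whether mural nuclei of different kinds lay behind these averages was examined within each library. Nuclei were first placed by MYH11, LMOD1 and ACTA2 against RGS5, NOTCH3 and PDGFRB. The first sum was larger in 17 of 31 members in WT (54.8%, 36 to 72.7) and 34 of 55 in PIGinH11 (61.8%, 47.7 to 74.6). The second was larger in 14 (45.2%) and 17 (30.9%), and 4 members of PIGinH11 were tied. With 3 WT and 12 PIGinH11 nuclei other than ties within 2 UMIs of the cut, these are ranges of 1 score and not types. In both libraries MYO1D, a myosin, went with the first range (31 and 51 UMIs against 1 and 1), together with PPFIA2, LTBP1, KANK1 and DSTN, and TMSB4X, DAPK2, COG6, SLC38A9 and COL4A1 were the 5 genes farthest apart in the other direction. Only for MYO1D and LTBP1 (18 and 26 UMIs against 1 and 1) were the intervals of the ranges apart in both libraries. COG6 (3 and 10 UMIs against 7 and 13) and COL4A1 (4 and 10 against 8 and 13) lay within counting error in WT.

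A further division was chosen after the values were seen, between EDNRB, TRPC6 and GUCY1A2 on 1 side and MYOCD, KCNAB1, SYNPO2, RGS6 and CACNB2 on the other. The former sum was larger in 26 of 31 members in WT (83.9%, 66.3 to 94.5) and 33 of 55 in PIGinH11 (60%, 45.9 to 73), called EDNRB-leaning here. The latter was larger in 4 members in WT (12.9%, 3.63 to 29.8) and 18 in PIGinH11 (32.7%, 20.7 to 46.7), called MYOCD-leaning. CACNB2, RGS6 and KCNAB1 were among the 10 genes with the largest ratios of PIGinH11 over WT, and MYOCD had 1.27. The larger share of MYOCD-leaning nuclei in PIGinH11 was therefore largely fixed by the choice of genes and is not a result on its own. The intervals overlapped, 1 and 4 members were tied, and 2 WT and 4 PIGinH11 members other than ties lay within 2 UMIs of the cut. No names of cell types were given to these ranges.

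**Figure D4:**
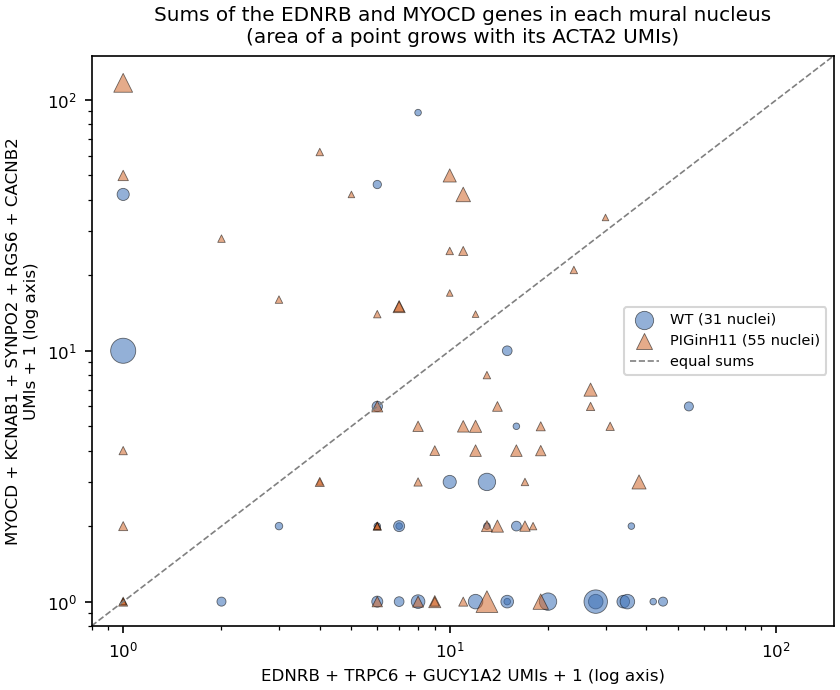
UMIs + 1 of EDNRB, TRPC6 and GUCY1A2 (x axis) against UMIs + 1 of MYOCD, KCNAB1, SYNPO2, RGS6 and CACNB2 (y axis) in each mural nucleus, on log axes, with 1 point per nucleus (31 WT, 55 PIGinH11) and its area showing ACTA2 UMIs. Most WT nuclei lie below the diagonal, 18 PIGinH11 and 4 WT nuclei lie above it, and ACTA2 occurs on both sides.

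Genes outside both sums followed the division in each library. ADAM22, TNFRSF21 (a death receptor), KCNH1 (a voltage-gated potassium channel), TMEFF2 and GNA14 (a G protein subunit) were the 5 genes farthest apart in this direction, and none of them had a UMI in a MYOCD-leaning nucleus. TNFRSF21 gave 80 and 30 UMIs there in WT and PIGinH11, and 0 in MYOCD-leaning nuclei of both. RGS5 gave 127 and 43 UMIs in EDNRB-leaning nuclei and 1 and 2 in MYOCD-leaning nuclei. LPL (99 and 42 against 0 and 1) and PID1 (155 and 64 against 0 and 2) had the same pattern.

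In the other direction, ZBTB7C gave 18 and 25 UMIs in MYOCD-leaning nuclei and 0 in EDNRB-leaning nuclei of both libraries. ITGA8, an integrin of smooth muscle, gave 24 and 22 UMIs against 2 and 0, and FILIP1, a filamin-binding protein, 26 and 20 against 1 and 1. RERGL, a small GTPase-like gene, gave 10 and 20 UMIs against 1 and 1, with the 10 UMIs of WT in 1 nucleus, and it was at 0 in stellate and endothelial nuclei of both libraries. SIPA1L2 gave 18 and 38 against 5 and 2.

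ACTA2 was measured in both ranges. In WT it was at 2379 CPM in EDNRB-leaning nuclei (2054 to 2742) and 2955 in MYOCD-leaning nuclei (2226 to 3846), and in PIGinH11 at 3153 (2709 to 3648) and 1909 (1509 to 2383). The intervals overlapped in WT and were apart in PIGinH11, where ACTA2 was higher in EDNRB-leaning nuclei. Its ratio of PIGinH11 over WT was 0.41 (0.10 to 0.71) in EDNRB-leaning and −0.63 (−1.15 to −0.11) in MYOCD-leaning nuclei. In the latter, 45 of the 55 WT UMIs of ACTA2 came from 1 nucleus, so this ratio and its direction rest largely on that nucleus. TPM1 was at 1146 CPM (924 to 1406) and 2525 (1855 to 3358) in the ranges of WT, and at 3450 (2985 to 3967) and 2570 (2102 to 3111) in those of PIGinH11. MYH11 was at 237 and 3384 CPM in WT and at 543 and 759 in PIGinH11, the latter with overlapping intervals. MYOCD, a part of the sum, was found in 3 WT and 12 PIGinH11 members.

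The 4 MYOCD-leaning nuclei of WT differed from each other. In 1 of them, of 2968 UMIs, MYH11 gave 34 UMIs, ACTG2 22 and MYOCD 7, and DLC1, RGS5, PDGFRB and EDNRB were at 0. Another held 45 ACTA2 UMIs among 2460, with MYH11 and MYOCD at 0. The remaining pair had 12 and 17 UMIs of MYH11, with 40 and 16 of SYNPO2, and the deeper of them carried 91 UMIs of acinar genes against 20 of the mural sum. WT values for MYOCD-leaning nuclei thus rest on 4 unlike nuclei.

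In PIGinH11, the nucleus with the highest MYOCD-leaning sum held 116 UMIs of these 5 genes among 4856, with 24 UMIs of ACTA2, 15 of MYOCD and 54 of PDE3A, and EDNRB, TRPC6, GUCY1A2 and RGS5 at 0. The nucleus that gave 19 of the 40 PPARG UMIs held 3860 UMIs, with 20 of TRPC6, 39 of TPM1 and 45 of DLC1. Its 2 sums were close, at 29 and 33.

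**Figure D5:**
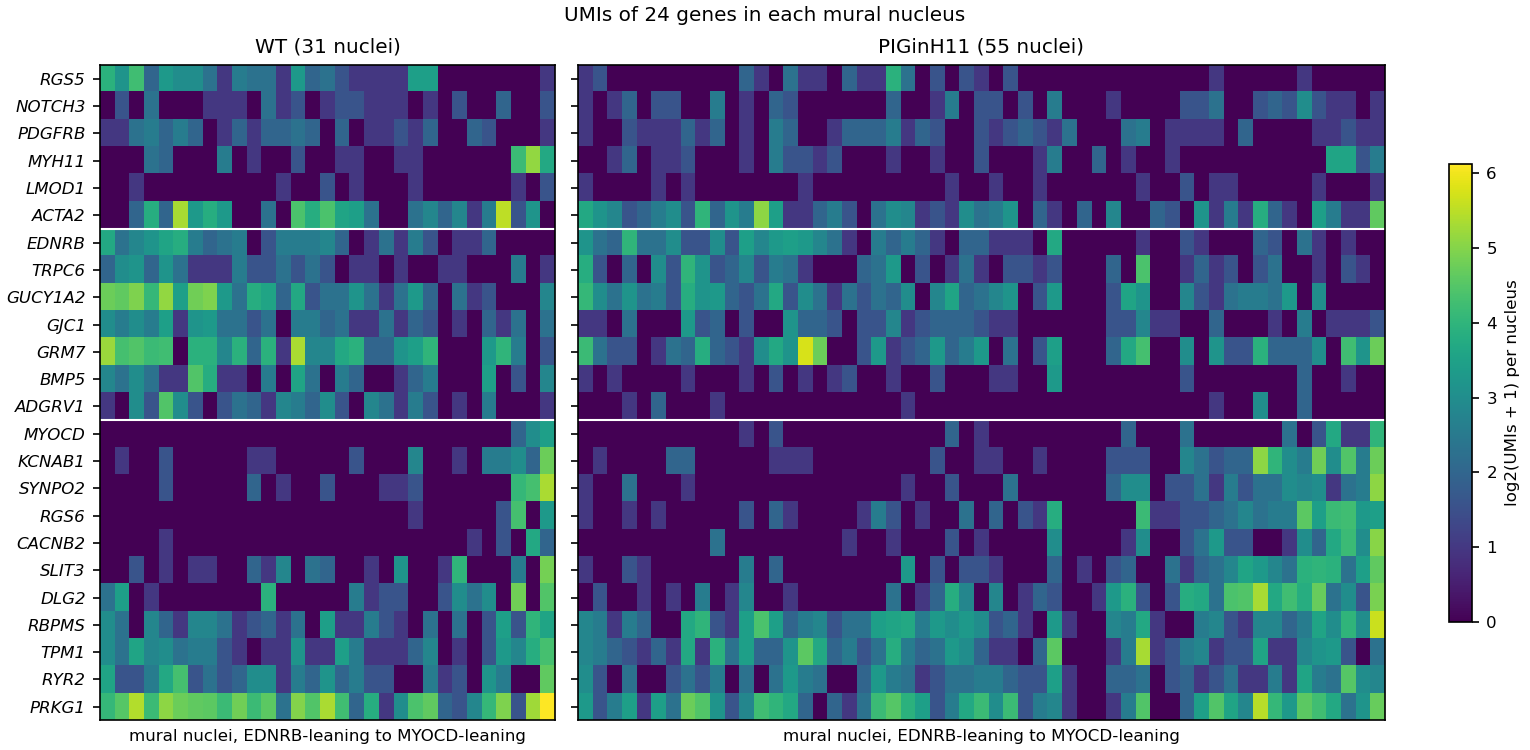
UMIs of 24 genes in each of the 31 WT and 55 PIGinH11 mural nuclei, with 1 column per nucleus, ordered in each library from EDNRB-leaning to MYOCD-leaning, and colour giving log2(UMIs + 1). RGS5 and EDNRB lie mostly at the EDNRB-leaning end and SYNPO2, KCNAB1, RGS6 and CACNB2 mostly at the other end, which holds 18 nuclei in PIGinH11 and 4 in WT, with CACNB2, RGS6, KCNAB1 and MYOCD among the genes already seen to be higher in PIGinH11.

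The comparison between the pigs was repeated within EDNRB-leaning nuclei alone. RGS5 stayed lower in PIGinH11 (log2 ratio −1.06, −1.61 to −0.56), as did ADGRV1 with 92 UMIs in WT and 6 in PIGinH11 (−3.34, −4.93 to −2.27), AGTR1 with 58 and 8 (−2.29, −3.64 to −1.29) and ROBO1 with 91 and 22 (−1.53, −2.30 to −0.87). BMP5 gave 96 and 24 UMIs (−1.49, −2.22 to −0.85) and NID2 35 and 8 (−1.57, −2.96 to −0.50). In MYOCD-leaning nuclei, ADGRV1 gave 1 and 11 UMIs (1.80, −0.46 to 7.75) and AGTR1 1 and 8 (1.37, −1.03 to 7.34), with intervals that included 0. A part of a different mix of nuclei in these differences was not tested.

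RBPMS (76 and 199 UMIs, 1.87, 1.49 to 2.28), TPM1 (1.59, 1.23 to 1.96), VCL (1.50, 0.92 to 2.13), PEAK1 (1.47, 0.94 to 2.03), NOTCH3 (1.05, 0.32 to 1.82) and EDNRB (0.92, 0.56 to 1.29) were higher in PIGinH11 within EDNRB-leaning nuclei. MYH11 gave 19 and 31 UMIs there (1.18, 0.33 to 2.10), against −0.33 over all members and −2.15 (−2.83 to −1.51) in MYOCD-leaning nuclei, where WT had 4. EDNRB was used to define the range, so its value is a description. CACNA1H gave 4 and 28 UMIs in EDNRB-leaning nuclei (3.15, 1.78 to 5.27) and 8 and 6 in MYOCD-leaning nuclei (−1.52, −3.36 to 0.17). In MYOCD-leaning nuclei the intervals of TPM1 (0.02, −0.48 to 0.55), VCL (0.27, −0.72 to 1.46) and NOTCH3 (1.19, −0.10 to 3.03) included 0. Those of RBPMS (0.74, 0.23 to 1.31) and PEAK1 (1.97, 1.04 to 3.22) did not.

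For other genes the ratio was smaller within the range than over all members. DLG2 had a log2 ratio of 0.60 (0.03 to 1.17) in EDNRB-leaning nuclei against 1.50 over all members, and SLIT3 −0.10 (−0.81 to 0.58) against 1.05. Both genes gave more UMIs in the MYOCD-leaning nuclei of PIGinH11 (237 and 132) than in its EDNRB-leaning nuclei (56 and 31). ANGPT1 had 59 and 28 UMIs in EDNRB-leaning nuclei (−0.57, −1.29 to 0.09), and 1 and 69 in MYOCD-leaning nuclei. SEMA5A gave 346 and 213 UMIs in EDNRB-leaning nuclei but 0 in the 4 MYOCD-leaning nuclei of WT and 90 in the 18 of PIGinH11.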

How the data were processed

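The deposited matrices hold raw UMI counts by gene and barcode, made by the authors from alignments to Sscrofa11.1 for barcodes called as nuclei with EmptyDrops, before doublets were removed. Processing notes name Cell Ranger 3.1.0 and Seurat 3.1.1, and the file headers cellranger 5.0.0. The matrices list 31908 genes. A symbol was missing for 15410, and the reference tables supplied 841 of those. Of 500 symbols on the lists, 24 matched no name. In mural nuclei, 87 genes without a name reached 30 UMIs (10.7% of UMIs in WT, 11.3% in PIGinH11, with all genes without a name).

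The members and the gene lists were chosen with earlier results of these data known. Stellate and endothelial nuclei were taken by rules of the same form, and acinar nuclei by at least 3 UMIs of EXTL1, CHN2, CDH4, EFEMP1, AGMAT, ADAD1 and RBPJL, above the mural, stellate, endothelial and ductal sums. Counts were summed per library (Python 3.11.15, numpy 2.4.6, scipy 1.17.1, pandas 2.3.3). Intervals were Clopper–Pearson for shares, Poisson for CPM and conditional binomial for ratios. Scrublet scores (scanpy 1.11.5) marked doublets, at 0.8% for each 1000 barcodes. No tests were made, as each group had 1 library. Some genes and gene lists are not reported here.

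Genes named were the 6 of the rule, the 15 highest over all other nuclei, the 10 largest and 10 smallest ratios among genes with at least 100 UMIs, the most abundant and the most different genes of each list, and the 5 genes farthest apart in each direction between ranges. Other genes named were chosen after their values were seen, as were the EDNRB- and MYOCD-leaning ranges. The scripts were tested on simulated data. Alternatives changed the marker, depth, doublet and mitochondrial limits, mixed nuclei, scaling, denominator, weighting, count minimum, added count and offset.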

Additional observations from a re-analysis of the deposited data

Results flagged for a closer look

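A set of 3 genes named above had ratios of opposite direction in mural nuclei and in another class, each with an interval that did not include 0. These differences were picked for their values, and the difference itself was not tested. RGS6 had a log2 ratio of PIGinH11 over WT of 2.50 in mural nuclei (31 and 178 UMIs) and −0.34 in stellate nuclei (−0.63 to −0.06, 351 and 148 UMIs). PEAK1 had 1.65 in mural nuclei (55 and 174 UMIs) and −0.24 in endothelial nuclei (−0.36 to −0.12, 1191 and 1027 UMIs). ROBO1 had −2.07 in mural nuclei (107 and 25 UMIs) and 1.12 in endothelial nuclei (0.08 to 2.33), where it gave only 11 and 25 UMIs. In stellate nuclei ROBO1 was at 465 CPM in WT and 352 in PIGinH11.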

How the results depend on the processing

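No paired analysis was possible because each group had 1 library, and for the same reason no replicate could be left out. The numbers of genes at least 2-fold higher (122) and lower (131) became 534 and 471 with at least 10 UMIs over both libraries in place of 30, where more genes of few UMIs are counted. The number at least 4-fold over endothelial nuclei went from 209 to 334 under the same setting. With each barcode thinned to 500 UMIs before the rule was applied, mural nuclei made up 0.106% in WT and 0.174% in PIGinH11, as fewer nuclei reach 3 marker UMIs. In EDNRB-leaning nuclei alone, chosen after seeing the data, 69 genes were at least 2-fold higher, among fewer genes counted. The median of the heat-shock and immediate-early list was 1.21 for 1 gene and −2.81 with at least 10 UMIs, for 5 genes.

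Of the other main values, 110 stayed within their spread or within 1.5 times of the count, as did 664 of the values of single genes and lists. Another 31 of these moved further, and 1, the heat-shock list, reversed. Without the mixed nuclei, 77 of the 100 higher and 80 of the 82 lower genes still counted were called. Without enzyme, ribosomal and mitochondrial genes in the total, 106 of 122 and 131 of 131 were called. RGS5 ranged from −1.84 to −1.06 over 12 alternatives, ADGRV1 from −3.34 to −2.11 and RBPMS from 1.42 to 1.87. Without the nucleus that gave each gene most UMIs in each library, which was chosen after seeing the data, CACNB2 had 3.62, RGS6 3.57, KCNAB1 2.12 and MYH11 0.16, which was −0.33 over all members. MYH11 had 1.18 and ANGPT1 −0.57 in EDNRB-leaning nuclei alone. KCNAB1 had 0.59 there, but it belongs to the MYOCD-leaning sum, so this value was in part fixed by the choice of nuclei.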
